A study of Mus musculus with 29 samples.

Results

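The comparison concerns whole livers of vehicle-treated male mice, old against young, measured by bulk RNA-seq. It takes the 4 old vehicle males numbered 2 to 5 and the 4 young vehicle males numbered 1 to 4, which are 8 of the 27 mice with read counts and of the 29 mice in the study, and all 55421 genes of the count table. Old males were C57BL/6J and 24 months old in the labels, and young males were C57BL6/N and 5 months old. All 8 mice received the vehicle by oral gavage for 14 days, the same regimen by which other old mice of the study received the MDM2 inhibitor HDM201 at 10 mg/kg. Age and substrain change together in every pair of mice, so that the 2 cannot be told apart, and "old" below stands for old C57BL/6J and "young" for young C57BL6/N. The study used the young group to see the effect of age on the liver.

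The liver consists mainly of hepatocytes, which make plasma proteins, bile acids and urea and store and burn fat. Kupffer cells and other macrophages, B and T cells, endothelial cells, stellate cells and bile duct cells make up the rest. In mice, many genes of drug and steroid metabolism and of pheromone transport are made at different levels in male and female hepatocytes, under the sex-specific rhythm of growth hormone. Interferons switch on a broad set of antiviral genes in all of these cells, and MHC class II molecules, which present antigen to T cells, are made mainly by macrophages, dendritic cells and B cells.

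Counts on genes summed to between 17168742 and 22523294 per mouse, with 20640 to 21224 genes detected in old males and 19708 to 20591 in young males. The first principal component of the 8 livers held 38.7% of the variance and separated old from young. Levels are CPM (read counts relative to a library size scaled by TMM, the trimmed mean of M-values), and are listed for old males 2, 3, 4 and 5 and for young males 1, 2, 3 and 4 in this order. Hepatocyte markers such as Alb (albumin) were abundant in all 8 livers, and none of the 16 hepatocyte markers tested was called. Their median log2 fold change was -0.03. Their summed CPM did not overlap, at 146116 to 200256 in old males and 126321 to 139867 in young males. The female transcript Xist had 0 to 7 counts per mouse, and the 4 Y-linked genes tested (Ddx3y, Eif2s3y, Kdm5d and Uty) had log2 fold changes between -0.29 and 0.09, none of them called. One further old male and one further young male (old vehicle male 1 and young vehicle male 5) have only FPKM values here, in which reads are set against gene length as well as depth. Both stood apart from their groups: the median correlation of log2(FPKM + 1) with the mice of the same group was 0.949 for old male 1 and 0.956 for young male 5, against 0.979 to 0.984 for the other 8. They entered none of the tests on counts and are described near the end.

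A gene was called when the Benjamini-Hochberg FDR of edgeR's quasi-likelihood test was under 0.05. Of 13755 genes tested, 507 (3.69%) were called, 379 higher in old males (2.76%) and 128 lower (0.931%). Over all genes tested 47.7% had a fold change above 0, and the counts of list members below are to be read beside these shares. The rises were larger: the median log2 fold change was 1.32 among genes higher in old males and -0.73 among genes lower, and 268 rises against 39 falls reached 1 on the log2 scale. In 495 of the called genes the 2 groups did not overlap in CPM, which was so for 13.6% of all genes tested. The count rested on single mice. It was 144 without old male 4, 178 without young male 4, 191 without young male 3 and 317 without old male 2. All 507 genes kept their direction in each of these fits, which carries little weight, since they were chosen in these same mice. DESeq2 called 1318 genes, 505 of the 507 among them.

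**Figure D1:**
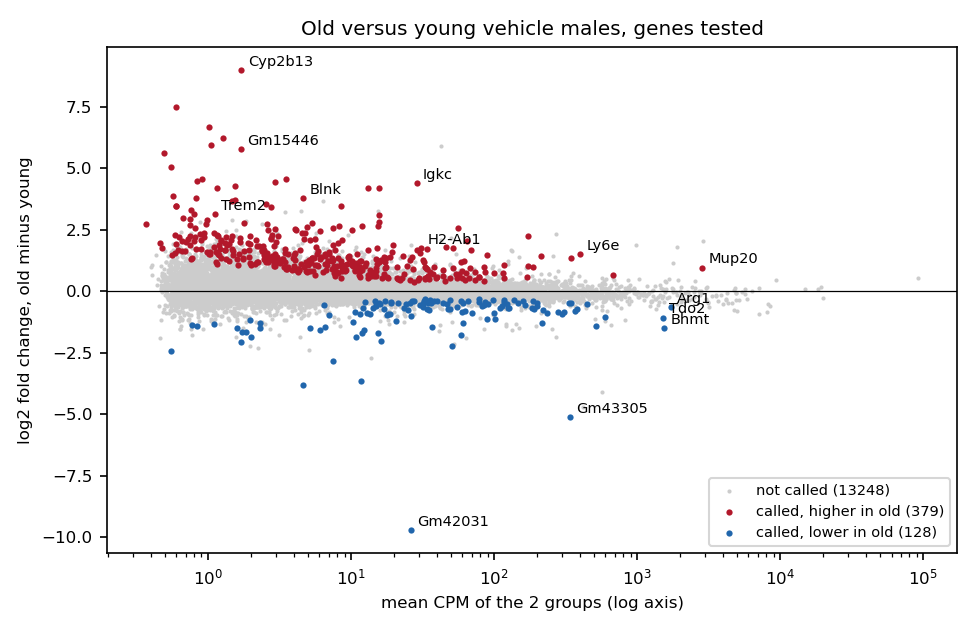
Log2 fold change of each gene tested (old minus young vehicle males) against its mean CPM over both groups, on a log axis. The 379 called rises reach to genes of low level, and the 128 called falls include the abundant Bhmt, Arg1 and Tdo2; the value of Cyp2b13, which had no count in young males, depends on the fit and is no estimate of its fold.

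Immunoglobulin transcripts, the products of B and plasma cells, had the highest median rise of the lists with 5 or more genes tested. Igkc (ENSMUSG00000076609.2, chromosome 6, 70726435 to 70726966, GRCm38), the constant part of the kappa light chain, had a CPM of 82.0, 33.3, 44.1 and 60.0 in the old males and 0.843, 4.49, 2.34 and 2.86 in the young males. Among these 8 mice every old male lay far above every young male, with a log2 fold change of 4.38 (SE 0.41, edgeR FDR 0.00115) that was called without each of them. Young male 5, which has no counts, held 171 FPKM of Igkc, inside the 112 to 272 FPKM of old males 2 to 5 and above the 2.29 to 15.4 FPKM of young males 1 to 4. Of the 10 genes of constant regions and the joining chain that passed the filter on low counts, 7 were called higher and none lower (2.76% of all genes were called higher), with a median of 3.10; without old male 4 there were 4. Ighg2c, of the IgG2c heavy chain, ranged from 0.901 to 16.7 in old males and from 0.0543 to 0.625 in young males, with a log2 fold change of 4.55 (SE 0.93, edgeR FDR 0.0294). Its call was lost without old male 4 or without any one of the young males, and its highest FPKM among all 10 vehicle males was that of young male 5 (19.9). Iglc1, of a lambda light chain, rose by a log2 value of 3.88 (SE 0.54, edgeR FDR 0.00655). Members near 0 in young males, such as Ighg2c, passed the filter through the old males and could appear only as rises. This limits what the count of 7 shows, and the same holds for such members of every list below.

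Only 4 variable-region genes passed the filter, each through its counts in old males, so that their count carries no weight. Ighv1-53 had 150 counts in the old males against 1 in the young, a ratio of 158 (95% Clopper-Pearson interval 28.0 to 6298), and 1 old male, number 5, held most of its CPM with 5.25 against 0.803 to 1.04 in the others. Igkv3-2 had 185 counts against 2, a ratio of 97.7 (26.7 to 813), and Igkv5-39 had 152 against 2, a ratio of 80.3 (21.8 to 669). These intervals cover counting error only, and near-identical gene segments can share reads.

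Most of the B cell and plasma cell markers that could be tested also had higher means in old males. Of 9 tested in a list of 16, 6 were called higher (2.76% of all genes were) and none lower, with a median log2 fold change of 1.63. Mzb1, a plasma cell marker too low to be tested, overlapped between the groups. It had 9, 9, 3 and 17 counts in old males and 13, 5, 7 and 6 in young males. A fold change above 0 was found for 8 of the 9, and the lowest value was -1.78. Jchain, which joins IgA and IgM units, had 13.5, 8.40, 6.37 and 9.17 CPM in old males and 1.02, 1.99, 1.41 and 1.09 in young males, a log2 fold change of 2.77 (SE 0.28, edgeR FDR 0.00177). Cd79a, the signalling chain of the B cell receptor, rose by 2.15 (SE 0.26, edgeR FDR 0.00379) and Ms4a1 (CD20) by 2.00 (SE 0.44, edgeR FDR 0.0369), from levels of 0.489 to 0.726 and 0.0602 to 0.408 CPM in young males. Ms4a1 kept its call only without old male 5. The whole marker list summed to 23.64 to 40.2 CPM in old males and 6.08 to 18.1 in young males, and of its 16 genes only Tnfrsf17 was at 0 in all young males. Without old male 4, 2 members were called. Jchain counts in both lists. In whole liver more cells of a type and more RNA per cell cannot be told apart, here and for every cell type below.

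Blnk, the adaptor that links the B cell receptor to its downstream signals, had the lowest FDR of all genes. It is on chromosome 19, 40928927 to 40994535 (ENSMUSG00000061132.13). Its CPM was 7.64, 6.96, 10.9 and 8.91 in old males and 0.602, 0.455, 0.652 and 0.771 in young males, without overlap and with little spread in either group. This is a log2 fold change of 3.77 (SE 0.24, edgeR FDR 0.000216), called without each of the 8 mice. In females the levels lay closer, with 3.64 ± 0.834 (SD, n = 4) for the old mice against 2.20 ± 0.913 (SD, n = 5) for the young.

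Of 22 markers of macrophages and monocytes tested, 13 were called higher (2.76% of all genes were) and none lower, all 22 had a fold change above 0, and the median was 1.49 on the log2 scale. The largest called rises were in Gpnmb and Trem2, both known from lipid-laden and scar-associated macrophages, and in Ms4a7. Trem2 had 3.35, 1.68, 2.01 and 1.01 CPM in old males and 0.120, 0.227, 0.326 and 0.227 in young males, a log2 fold change of 3.12 (SE 0.45, edgeR FDR 0.00831). Ms4a7 had 2.20, 1.45, 2.01 and 1.11 in old and 0.181 to 0.284 in young males, a log2 fold change of 2.71 (SE 0.34, edgeR FDR 0.00432). Both calls held without each mouse, but both genes were near 0 in young males and passed the filter through the old males. Members of this kind could appear only as rises, which limits what the count of 13 shows. Gpnmb was far higher in old male 2 (14.2) than in the other old males (1.80 to 4.88), and young males held 0.0602 to 0.545, for a log2 fold change of 4.41 (SE 0.84, edgeR FDR 0.0238). Gpnmb lost its call without old male 4 or without any one of young males 1, 2 and 3.

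The macrophage list summed to 334, 212, 412 and 150 CPM in old males and to 76.5, 146, 94.2 and 94.1 in young males, so that old male 5 came close to young male 2. In FPKM young male 5, outside the test, summed to 299, inside the 107 to 300 of old males 2 to 5 and above the 55.0 to 96.7 of the other young males. Between 4 members (without old male 4) and 16 (without old male 5) were called when 1 mouse was left out. Among 12 markers of resident Kupffer cells 2 were called, the complement genes C1qa (log2 fold change 1.28, SE 0.29, edgeR FDR 0.0433) and C1qc (1.38, SE 0.29, edgeR FDR 0.0347), which other macrophages also make. The median of the 12 was 1.05, with 10 above 0 and the lowest at -1.13. Clec4f and Timd4, which define Kupffer cells, had log2 fold changes of 0.87 (edgeR FDR 0.178) and 0.23 (edgeR FDR 0.849). Neither complement gene was called without old male 4. Among the 13 T and NK cell markers tested only Trac, the constant part of the T cell receptor alpha chain, was called (log2 fold change 1.73, SE 0.37, edgeR FDR 0.0351), with a list median of 1.15. The call of Trac was lost without old males 2 or 4 or any one young male.

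**Figure D2:**
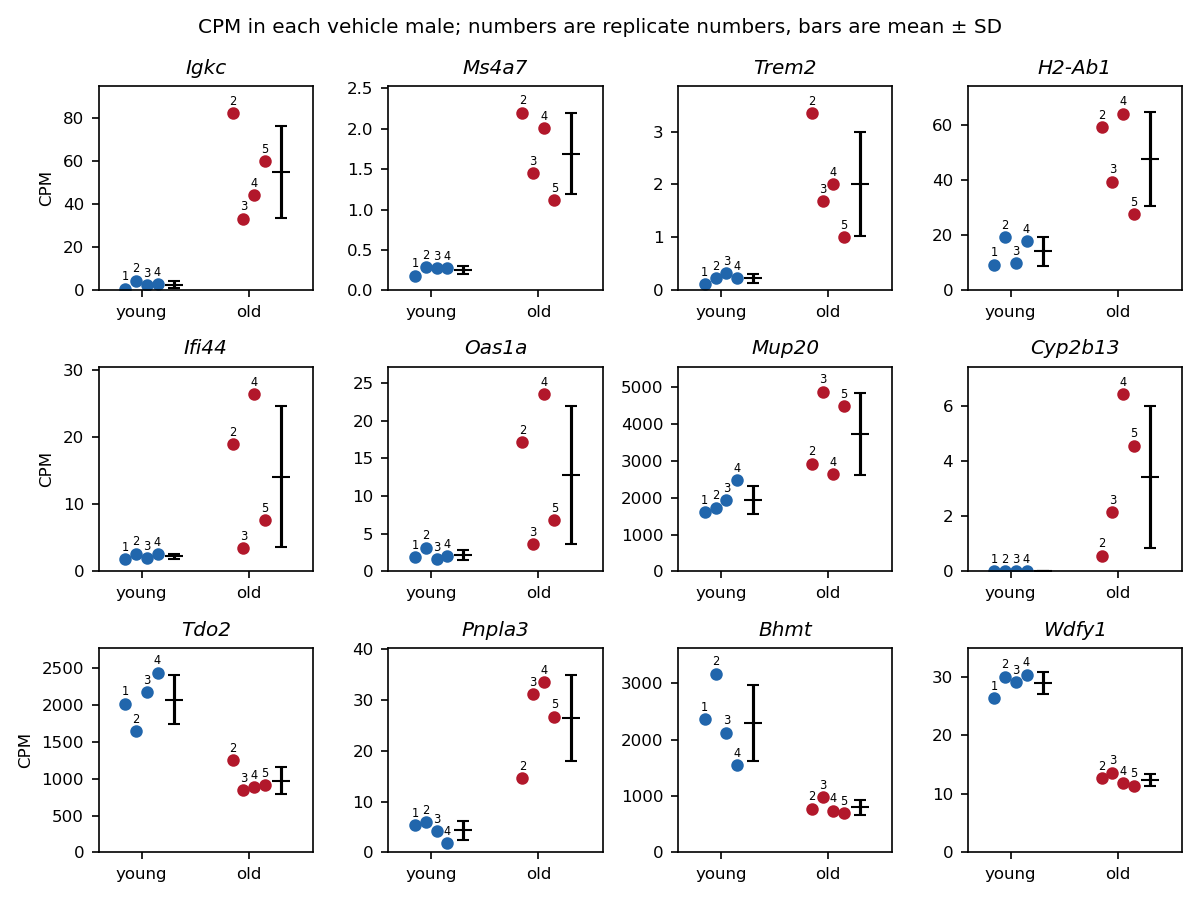
CPM of 12 genes in each of the 4 young and 4 old vehicle males (points, with the replicate number) and the mean ± SD of each group. In all 12 genes the groups do not overlap, and for Ifi44 and Oas1a old males 2 and 4 lie far above old males 3 and 5.

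MHC class II genes had higher means in old males. Of 10 tested, 6 were called higher (2.76% of all genes were), none lower, and all had fold changes above 0 (47.7% of all genes did) with a median of 1.52. H2-Ab1 (chromosome 17, 34257689 to 34269419), the beta chain of the I-A molecule, had 59.2, 39.5, 64.1 and 27.6 CPM in old males and 9.39, 19.4, 9.89 and 17.97 in young males. Its rise of 1.76 in log2 units (SE 0.31, edgeR FDR 0.0193) was not called without old male 4 or young male 3. H2-DMb2 and H2-Oa, which serve peptide loading, rose by 2.19 (SE 0.46, edgeR FDR 0.0328) and 2.73 (SE 0.58, edgeR FDR 0.0340), both from a few counts in young males, and each was called in only 2 of the 8 fits that left out 1 mouse. None of the 10 was called without old male 4 and 8 were called without old male 5.

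MHC class I genes, made by all nucleated cells, had a lower median. Of 16 tested, 4 were called higher (H2-D1, H2-Q4, H2-Q6 and Psmb8), against 2.76% of all genes. Of the 16, 15 were above 0, and the median was 0.67. H2-D1, the most abundant of the 4, had 823, 689, 1007 and 794 CPM in old males and 531, 619, 489 and 489 in young males, a log2 fold change of 0.65 (SE 0.14, edgeR FDR 0.0357). H2-Q6 and H2-Q4, class Ib genes with close paralogs that can share reads, rose by 1.23 (SE 0.20, edgeR FDR 0.0130) and 0.92 (SE 0.17, edgeR FDR 0.0221). Psmb8, a subunit of the immunoproteasome, rose by 0.98 (SE 0.22, edgeR FDR 0.0404). Without old male 4 only 1 of the 4, H2-Q6, was called.

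Interferon-stimulated genes had fold changes above 0 for all 35 members tested, with a median log2 fold change of 1.22 beside -0.01 over all genes. The test called 10 of them higher (2.76% of all genes were called higher) and none lower. Promoters of 4 called members are shown with and without the response element known to bind interferon-activated factors, written GAAA, any 2 bases and GAAA again on either strand, which is printed in capitals. The windows run from 250 bases before to 50 bases after the RefSeq start site on GRCm38.p6, 5′ to 3′ on the strand of the gene. The first 3 sequences belong to called genes with the element, which occurs in each as 2 overlapping matches, and the fourth to a called gene whose window holds no match. They lie at chr5:120907476-120907775, chr5:120887564-120887863, chr8:71537423-71537722 and chr3:151749861-151750160, all on the minus strand.
Oas1a: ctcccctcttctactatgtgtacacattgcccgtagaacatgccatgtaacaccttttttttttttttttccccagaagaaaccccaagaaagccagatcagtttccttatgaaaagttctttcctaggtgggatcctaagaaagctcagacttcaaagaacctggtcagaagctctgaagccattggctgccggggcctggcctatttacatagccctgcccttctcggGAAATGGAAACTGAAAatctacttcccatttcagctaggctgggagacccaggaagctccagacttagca
Oas1g: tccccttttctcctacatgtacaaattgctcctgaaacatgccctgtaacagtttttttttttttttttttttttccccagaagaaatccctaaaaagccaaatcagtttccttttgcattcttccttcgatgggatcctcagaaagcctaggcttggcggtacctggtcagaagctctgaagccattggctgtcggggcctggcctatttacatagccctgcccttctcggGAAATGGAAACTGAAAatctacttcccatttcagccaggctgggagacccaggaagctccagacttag
Bst2: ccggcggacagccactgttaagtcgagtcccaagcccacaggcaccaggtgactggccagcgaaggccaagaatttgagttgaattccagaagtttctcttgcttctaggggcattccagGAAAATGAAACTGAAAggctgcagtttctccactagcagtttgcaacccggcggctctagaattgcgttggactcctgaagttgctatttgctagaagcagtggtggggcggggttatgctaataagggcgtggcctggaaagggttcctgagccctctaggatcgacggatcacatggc
Ifi44: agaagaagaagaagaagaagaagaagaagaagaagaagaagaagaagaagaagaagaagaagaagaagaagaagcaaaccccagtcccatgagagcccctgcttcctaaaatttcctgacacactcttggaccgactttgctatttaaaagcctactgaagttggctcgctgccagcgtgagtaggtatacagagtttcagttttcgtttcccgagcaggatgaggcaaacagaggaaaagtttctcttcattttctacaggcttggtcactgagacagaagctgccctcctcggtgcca

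The element begins 20 bases before the start site in Oas1a, 18 in Oas1g and 130 in Bst2. RefSeq windows were found for 25 of the 35 genes, and 15 of the 25 (60.0%) held the element in at least 1 window, against 1079 of all 27025 genes with a window (3.99%). Among the called genes 8 had a window, and 3 of them (Oas1a, Oas1g and Bst2) held the element while 5 (Oasl1, Oasl2, Irf7, Ifi44 and Sp100) did not. Of the 17 genes with a window that were not called, 12 held it. A match is a description of the letters, and a window without one says nothing about binding elsewhere. The other motifs searched in these windows on both strands were the E-box CACGTG, found for 0 of the 25 genes and 8.09% of all genes, the STAT site TTCNNNGAA, found for 4 (16.0%) and 9.55%, and the sterol regulatory element, found for 0 and 0.0999%.

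Irf7, a transcription factor that amplifies interferon signals, had 128, 40.6, 169 and 78.0 CPM in old males and 28.9, 28.2, 20.2 and 25.1 in young males. This gave a log2 fold change of 2.03 (SE 0.37, edgeR FDR 0.0197). Ifi44 had 18.9, 3.42, 26.4 and 7.64 CPM in old males and 1.87, 2.61, 2.01 and 2.59 in young males, a log2 fold change of 2.64 (SE 0.55, edgeR FDR 0.0312). Oas1a, one of the enzymes that sense double-stranded RNA, had 17.1, 3.65, 23.5 and 6.79 against 1.87, 3.13, 1.63 and 2.00, a log2 fold change of 2.58 (SE 0.53, edgeR FDR 0.0308). In each of these 3 genes old males 2 and 4 held the highest levels and old male 3 lay nearest the young males. Ifi44 and Oas1a were not called without old males 2 or 4 or any one young male. Ifi27l2a rose by 2.53 (SE 0.46, edgeR FDR 0.0201). Oas1a and Oas1g are close paralogs, so that reads of either may be counted for the other.

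The old males differed more among themselves in this list than the young males. Averaged over the 35 genes, log2(CPM + 1) lay 1.45, 0.16, 1.57 and 0.66 above the mean of the young males in old males 2, 3, 4 and 5, and young males ranged from -0.19 to 0.26. The same order of mice, with 2 and 4 above 3 and 5, held for the summed macrophage markers given above and for MHC class II, at 357, 223, 393 and 174 CPM. Erythroid markers, a sign of blood in the tissue, summed to 455, 295, 1145 and 286 CPM in old males and 235 to 328 in young males, with none of 5 called. Their part in the differences was not tested. Without young male 3 only 1 interferon-stimulated gene was called, and without old male 3 there were 21. None of the 18 interferon-gamma-induced GTPase genes tested was called, although all 18 were above 0 with a median of 0.96. The 2 most abundant, Iigp1 and Irgm2, had log2 fold changes of 0.70 (SE 0.19, edgeR FDR 0.0712) and 0.76 (SE 0.30, edgeR FDR 0.178).

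**Figure D3:**
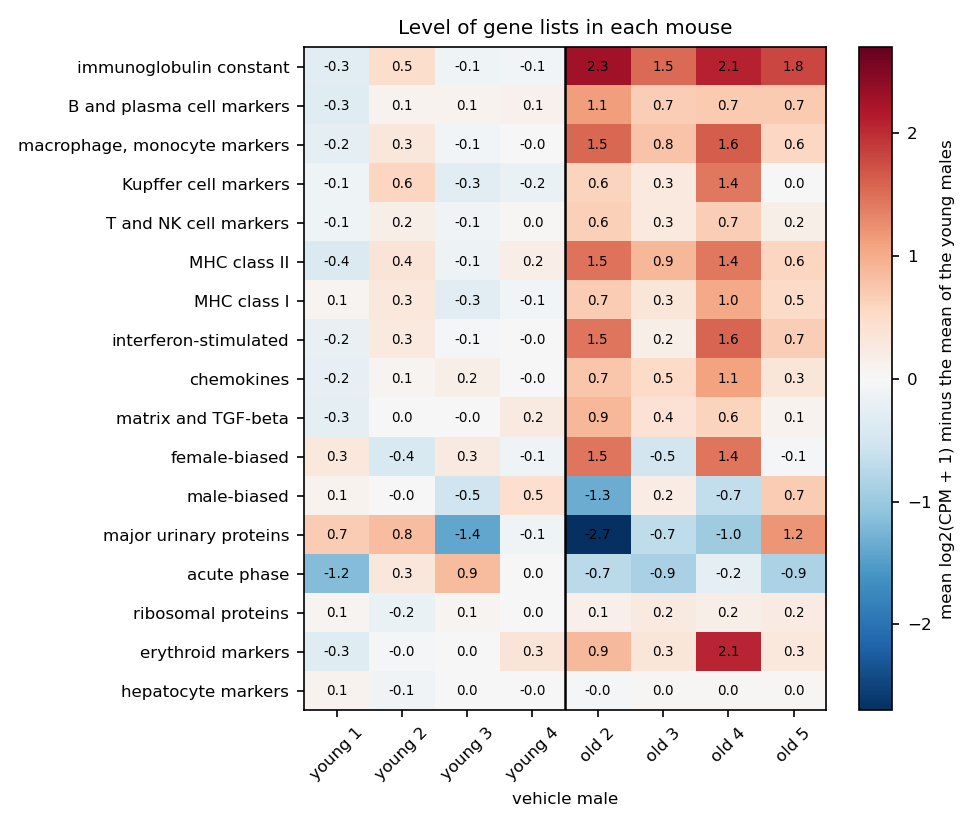
Mean log2(CPM + 1) over the tested members of 17 gene lists in each vehicle male, as the difference from the mean of the 4 young males. Immunoglobulin constant genes lie 1.5 to 2.3 above it in all 4 old males, while interferon-stimulated and female-biased genes are highest in old males 2 and 4 and the major urinary proteins lowest in old male 2.

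Of 15 chemokines tested 2 were called higher, and 1 without old male 4 (2.76% of all genes were called higher). Ccl5, which attracts T cells, had 7.22, 2.14, 6.43 and 2.23 CPM in old males and 0.361 to 0.978 in young males, a log2 fold change of 2.71 (SE 0.50, edgeR FDR 0.0212). Cxcl16 rose by 1.23 (SE 0.19, edgeR FDR 0.0102), and its call held without each mouse, while that of Ccl5 was lost without old male 4, young male 2 or young male 4. The list of factors known from senescent cells (the senescence-associated secretory phenotype) had 7 of 23 members called higher and none lower, with a median of 0.81. Its largest called rises were Mmp12, a macrophage metalloprotease, with a log2 fold change of 3.66 (SE 0.62, edgeR FDR 0.0152), Spp1 (osteopontin) with 0.96 (SE 0.16, edgeR FDR 0.0152) and Tgfb1 with 0.87 (SE 0.18, edgeR FDR 0.0294). Spp1 had 58.7, 49.4, 48.7 and 43.9 CPM in old males and 25.2, 27.9, 32.3 and 18.2 in young males, and its call held without each mouse. Young male 5, outside the test, held 76.8 FPKM of Spp1. This lay above the 29.0 to 43.2 FPKM of old males 2 to 5 and below the 214 of old male 1. Spp1 is also made by bile duct cells, where it was the only one of 9 tested markers called, with a list median of 0.85. Of the senescence list 2 members were called without young male 3 and 9 without old male 5.

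Inhibitors of cyclin-dependent kinases, the usual marks of senescence itself, gave no call among 5 tested. Cdkn1a (p21) had 16.1, 2.14, 3.61 and 2.704 CPM in old males and 5.36, 14.0, 6.74 and 10.9 in young males, with a log2 fold change of -0.58 (SE 0.59, edgeR FDR 0.613). Among the old males with counts, old male 2 alone held a high value. Without that mouse the log2 fold change of Cdkn1a was -1.70 and it was called lower. Its highest FPKM of all vehicle males were those of the mice without counts, 19.3 in old male 1 and 31.4 in young male 5. The other old males had 1.14 to 8.39 FPKM and the other young males 2.59 to 7.09. Cdkn1b had a log2 fold change of -0.12 (SE 0.09, edgeR FDR 0.500). Cdkn2a (p16 and p19Arf) was too low to be tested. It had 5, 19, 17 and 7 counts in old males and 2, 0, 1 and 1 in young males. Trp53 and Mdm2, the targets of the study's drug axis, had log2 fold changes of 0.11 (edgeR FDR 0.574) and -0.06 (edgeR FDR 0.743). Among 27 p53 target genes tested 2 were called higher and 1 lower. Eda2r, a receptor of the TNF family, had 2.77, 0.753, 2.35 and 1.01 CPM in old males and 0.301, 0.455, 0.109 and 0.0908 in young males, a log2 fold change of 2.87 (SE 0.59, edgeR FDR 0.0300). Phlda3 rose by 1.22 (SE 0.29, edgeR FDR 0.0496) and Ei24 fell by 0.41 (SE 0.09, edgeR FDR 0.0369). None of the 3 was called without old male 4.

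Matrix genes rose in part. Of 25 genes of collagens, other matrix and TGF-beta, 3 were called higher (2.76% of all genes were) and none lower, with a median of 0.77. Col6a1 and Col6a3, chains of the microfibrillar collagen VI, rose by 1.02 (SE 0.14, edgeR FDR 0.00596) and 1.12 (SE 0.22, edgeR FDR 0.0281). Col1a1 and Col3a1, the fibrillar collagens of scars, had log2 fold changes of 1.19 (edgeR FDR 0.119) and 0.87 (edgeR FDR 0.158). Stellate cell and fibroblast markers had 1 call of 12, Des, with a log2 fold change of 0.86 (SE 0.18, edgeR FDR 0.0342), and endothelial markers 1 of 20, Plvap, with 0.58 (SE 0.10, edgeR FDR 0.0186). Matrix calls ranged from 1 without old male 4 to 5 without old male 5. The list of fetal and tumour liver genes had 3 of 7 called higher, with at most 5.45 CPM in any of the 8 mice. Golm1 rose by 1.31 (SE 0.28, edgeR FDR 0.0344), Cd24a by 1.28 (SE 0.25, edgeR FDR 0.0259) and Afp (alpha-fetoprotein) by 1.18 (SE 0.28, edgeR FDR 0.0496), and none of the 3 was called without old male 2.

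**Figure D4:**
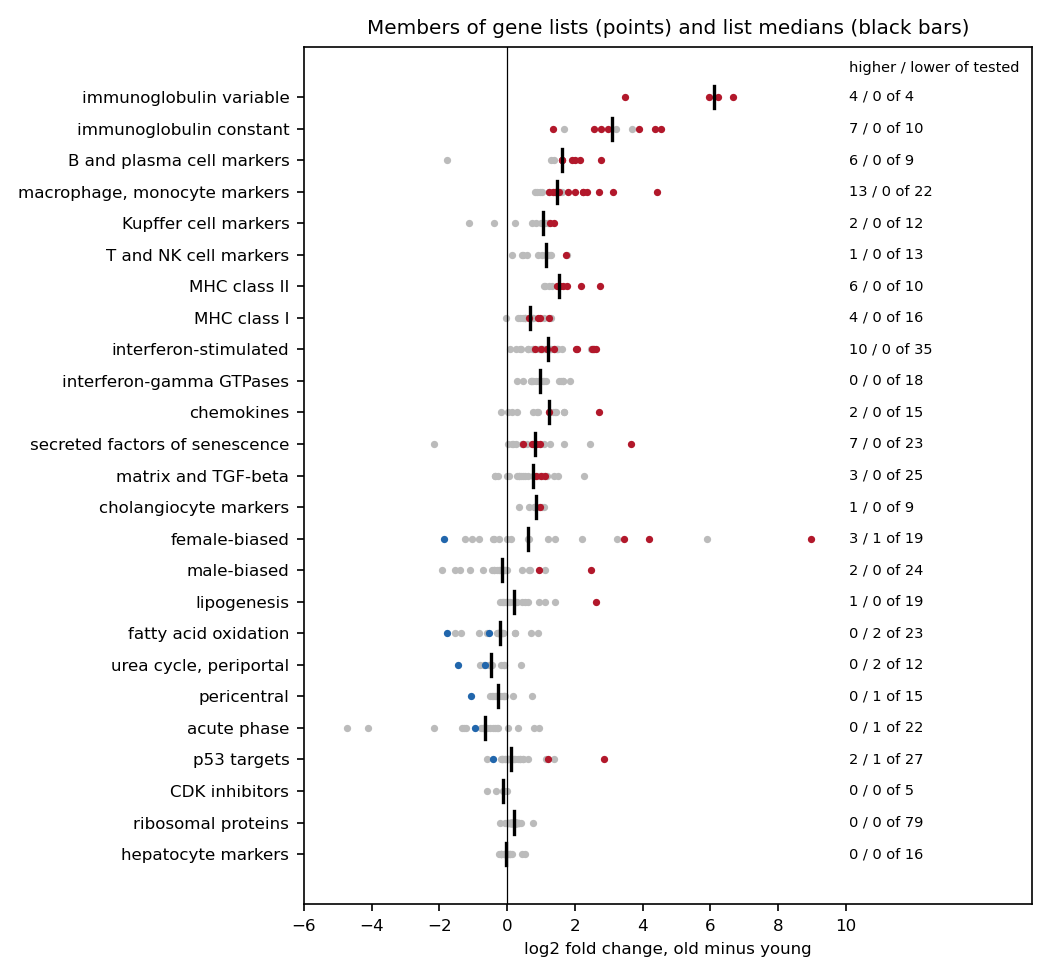
Log2 fold change (old minus young vehicle males) of the tested members of 25 gene lists, with called rises in red, called falls in blue, other members in grey and the list median as a black bar. The numbers at the right give members called higher, called lower and tested. The medians of the immunoglobulin, immune cell marker, MHC and interferon lists lie to the right of 0, and those of hepatocyte markers and CDK inhibitors lie at -0.03 and -0.12.

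Hepatocyte genes with a sex bias did not move as a group. Of 24 male-biased genes 2 were called, both higher in old males, and the median was -0.16. Mup20 (darcin, chromosome 4, 62050234 to 62054158), a male urinary pheromone, was the most abundant called gene. It had 2928, 4877, 2641 and 4493 CPM in old males and 1600, 1728, 1936 and 2471 in young males, a log2 fold change of 0.95 (SE 0.23, edgeR FDR 0.0496), and it was called in none of the fits without 1 mouse. Gstp2, a glutathione transferase, had 12.3, 10.8, 18.02 and 27.4 against 1.69, 2.05, 2.12 and 6.22 CPM, a log2 fold change of 2.48 (SE 0.44, edgeR FDR 0.0186) not called without old male 4 or young male 3. The FPKM of Gstp2 in the same mice overlapped, at 512, 1210, 652 and 1248 in old males and 929, 732, 715 and 1234 in young males. Its rise is thus seen in the counts only and is uncertain. The other major urinary proteins overlapped widely. Mup3 had 1374, 5711, 3633 and 6215 CPM in old males and 7444, 6029, 4186 and 4484 in young males (edgeR FDR 0.620), and Mup7 ranged from 0.314 in old male 2 to 411 in old male 5 and from 11.1 to 392 in young males. Old male 2 held the lowest level of both. These genes are near-identical and their counts are uncertain.

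Female-biased genes gave 3 rises and 1 fall among 19 tested, with a median of 0.63, the same with Cyp2b13 at its lower bound. Cyp2b13 (chromosome 7, 26061497 to 26096197), a cytochrome P450 of female liver, had 0.575, 2.14, 6.43 and 4.56 CPM in old males and no count in any young male. Its 246 counts in old males put it at least 86.6-fold higher (floor of 3 counts over the young group, edgeR FDR 0.0247), and it was not called without old male 4, young male 3 or young male 4. Cyp2b9 had 22.0, 9.62, 56.1 and 11.2 CPM in old males and 4.75, 1.02, 0 and 0 in young males, a log2 fold change of 4.19 (SE 1.00, edgeR FDR 0.0497) called only without old male 5 or young male 1. Ntrk2, a neurotrophin receptor, had 17.1, 12.8, 12.9 and 19.5 against 0.241, 0.227, 3.97 and 1.18, a log2 fold change of 3.45 (SE 0.62, edgeR FDR 0.0197) not called without young male 4. The levels of the Cyp2b genes in old males stayed under those of females, where Cyp2b13 had 317 ± 52.9 CPM (SD, n = 5) in young mice and 49.3 ± 31.0 (SD, n = 4) in old ones.

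Cyp2a4, a female-biased P450 chosen here after its values were seen, was high only in old males 2 and 4, with 241 and 89.2 CPM against 0.232 and 2.55 in old males 3 and 5 and 0.284 to 3.80 in young males. It was not called (log2 fold change 5.90, SE 1.64, edgeR FDR 0.0725). Old males 2 and 4 thus held the highest means of both the female-biased and the interferon-stimulated list, and over the female-biased list the 4 old males lay 1.45, -0.49, 1.45 and -0.06 from the young mean of log2(CPM + 1). Genes of the growth hormone axis gave no call of 9, with Igf1 at -0.11 (SE 0.13, edgeR FDR 0.686) and Ghr at -0.01 (SE 0.10, edgeR FDR 0.964). The fall among female-biased genes was Cyp2b10, also a target of the xenobiotic receptor CAR. It had 5.81, 3.19, 2.87 and 6.89 CPM in old males and 23.7, 16.9, 16.9 and 10.9 in young males, a log2 fold change of -1.85 (SE 0.31, edgeR FDR 0.0140). Among 20 drug-metabolizing P450 genes, Cyp26a1, which degrades retinoic acid, was the only one called higher. It had 76.1, 65.4, 99.3 and 75.4 against 14.7, 24.6, 20.0 and 36.0 CPM, a log2 fold change of 1.73 (SE 0.25, edgeR FDR 0.00749). Cyp2j5 fell by 0.51 (SE 0.12, edgeR FDR 0.0460) and was called only without old male 5.

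Lipid genes moved one by one. Pnpla3, a lipid droplet protein of triglyceride turnover, had 14.5, 31.1, 33.5 and 26.7 CPM in old males and 5.36, 5.91, 4.24 and 1.82 in young males, a log2 fold change of 2.63 (SE 0.35, edgeR FDR 0.00577). It was the only call of 19 lipogenic genes. In FPKM, outside the test, Pnpla3 was lower in old male 1 (0.887) than in young male 5 (4.996). Old males 2 to 5 held 6.71 to 13.5 FPKM and young males 1 to 4 held 0.853 to 2.87. Fasn (fatty acid synthase) had a log2 fold change of 1.13 (edgeR FDR 0.134). Of 9 lipid droplet genes, the droplet coat proteins Plin4 and Plin5 were called lower (0.931% of all genes were), with falls of 1.70 (SE 0.26, edgeR FDR 0.0104) and 1.32 (SE 0.24, edgeR FDR 0.0201). Plin5 had 46.0, 32.6, 27.3 and 32.1 CPM against 120, 56.996, 69.6 and 97.9, and was not called without old male 4 or young male 4. Among 23 genes of fatty acid oxidation, Cyp4a10 and Cpt2 fell by 1.78 (SE 0.40, edgeR FDR 0.0413) and 0.52 (SE 0.11, edgeR FDR 0.0362), and neither was called without old male 2, 3 or 4.

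The most abundant genes called lower were Bhmt, Arg1 and Tdo2. Bhmt (chromosome 13, 93616675 to 93637961), which turns homocysteine into methionine, had 775, 984, 738 and 692 CPM in old males and 2360, 3167, 2122 and 1542 in young males. This is a log2 fold change of -1.52 (SE 0.21, edgeR FDR 0.00656). Tdo2, the first enzyme of tryptophan breakdown, had 1250, 847, 885 and 909 against 2014, 1645, 2174 and 2436, a log2 fold change of -1.08 (SE 0.17, edgeR FDR 0.0116). Arg1 (arginase), the last enzyme of the urea cycle, had 1427, 1309, 1330 and 1258 against 1999, 1798, 2247 and 2349, a log2 fold change of -0.65 (SE 0.13, edgeR FDR 0.0247). The calls of Bhmt and Tdo2 held without each mouse, and that of Arg1 was lost without old males 3 or 4 or young males 3 or 4. In FPKM, outside the test, Bhmt was at 663 in old male 1 and 1463 in young male 5. Tdo2 in young male 5 (276) lay below every old male (425 to 612). Arg1 was at 820 in young male 5 and 890 in old male 1. In the list of periportal and urea cycle genes 2 of 12 were called lower (0.931% of all genes), Arg1 and Sds, which breaks down serine (log2 fold change -1.44, SE 0.32, edgeR FDR 0.0405), and the median was -0.48. Oat, a pericentral enzyme of ornithine, was the only call of 15 pericentral genes and fell by 1.06 (SE 0.24, edgeR FDR 0.0411). Sds kept its call only without old male 2 or young male 2, and Oat only without old male 2 or old male 5. Of 30 coagulation and complement genes only F11 was called, with a fall of 0.65 (SE 0.10, edgeR FDR 0.0112).

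Acute phase genes, which the liver makes in inflammation, varied widely among the young males. Saa1 and Saa2 (serum amyloid A), named here after their values were seen, were not called. Saa1 had 50.7, 45.9, 96.4 and 54.7 CPM in old males, 20.7 in young male 1 and 793, 2661 and 840 in young males 2, 3 and 4, for a log2 fold change of -4.11 (SE 1.00, edgeR FDR 0.0521). Saa2 followed with 20.9 to 52.2 in old males, 8.49 in young male 1 and 660, 2100 and 460 in the others (edgeR FDR 0.0508). Lcn2 (lipocalin 2) had 8.93 to 38.9 in old males and 6.86, 60.6, 238 and 35.5 in young males. Of 22 acute phase genes 18 had a fold change below 0, with a median of -0.65, and Saa4 alone was called (log2 fold change -0.94, SE 0.17, edgeR FDR 0.0195), though not without old male 4 or young male 4. Without young male 1 there were 4 calls. Young male 3 held the highest level of Saa1, Saa2 and Lcn2.

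The list of genes known to differ between the substrains had 5 members tested. Wdfy1 had 12.7, 13.6, 11.9 and 11.4 CPM in old males and 26.3, 30.004, 29.1 and 30.4 in young males, a log2 fold change of -1.22 (SE 0.09, edgeR FDR 0.000523), and in females of -1.13. Ide (insulin-degrading enzyme) rose by 0.72 (SE 0.14, edgeR FDR 0.0244) in males and by 0.96 in females, and in males was not called without old male 4, young male 3 or young male 4. Nnt, whose gene is defective in C57BL/6J, had 1.61 to 2.39 CPM in old males and 2.39 to 3.67 in young males, a log2 fold change of -0.59 (SE 0.22) that was not called (edgeR FDR 0.159). These values are of the tested entry, and a further entry named Nnt had no counts in any of these mice.

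Other genes of very different level were mostly of little known function. Gm15446, a zinc finger gene, had 3.45, 3.59, 3.73 and 2.49 CPM in old males and 0.120, 0.114, 0 and 0 in young males, a log2 fold change of 5.78 (SE 0.53, edgeR FDR 0.00115). Olfr1029, annotated as an olfactory receptor, rose by 4.28 (SE 0.35, edgeR FDR 0.000523), Hsf2bp by 3.71 (SE 0.34, edgeR FDR 0.00115) and the protease Prss8 by 1.34 (SE 0.11, edgeR FDR 0.000523). The lincRNA Gm30551 had 87 counts in old males and none in young males, at least 30.6-fold higher by the same floor. The largest fall was in the lincRNA Gm42031 (chromosome 8, 85125872 to 85132289), with 0.157, 0.0580, 0 and 0 CPM in old males and 92.0, 5.68, 25.7 and 86.7 in young males, a log2 fold change of -9.73 (SE 1.24, edgeR FDR 0.00494). Gm43305 followed, with 4.56 to 25.9 CPM against 79.3 to 1335 and a log2 fold change of -5.13 (SE 0.88, edgeR FDR 0.0156). Neither Gm43305 nor Gm30551 was called without old male 4. Gm49980, Gm46620, Hcrtr2 and Tymp fell by 3.64, 2.86, 2.46 and 2.25 in log2 units, Hcrtr2 not without old male 4, young male 3 or young male 4. The heparan sulfatase Sulf2 had 4.87 to 8.21 CPM in old males and 18.2 to 18.7 in young males (log2 fold change -1.57, SE 0.15, edgeR FDR 0.00133). Pptc7 and Car14 fell by 0.91 and 1.48. Exons of 38 of the 128 genes named by rule overlap those of another gene, Wdfy1, Prss8, Hsf2bp, Tymp, Sulf2 and Pptc7 among them, and the use of strand in counting was not given in the sources used here.

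Several programmes showed few or no calls. None of 18 clock genes, 16 bile acid genes, 19 genes of the integrated stress response, 17 chaperones of the endoplasmic reticulum, 76 genes of the respiratory chain or 13 mitochondrially encoded genes was called. The 79 ribosomal protein genes gave no call either, but 75 had a fold change above 0, with a median of 0.20, and 26 did not overlap between the groups, where 13.6% of all genes did not. Of 27 proliferation genes only Ccnd1 (cyclin D1) was called, with a log2 fold change of 1.67 (SE 0.40, edgeR FDR 0.0497). Of 19 immediate early genes 4 were called higher (2.76% of all genes were), with Fos at 1.86 (SE 0.40, edgeR FDR 0.0369). The heat shock genes Hspa1b and Hspb1 rose by 1.76 (SE 0.42, edgeR FDR 0.0496) and 0.89 (SE 0.18, edgeR FDR 0.0260), Gsta4 by 0.53 (SE 0.10, edgeR FDR 0.0193) and the insulin-repressed Igfbp2 by 1.33 (SE 0.26, edgeR FDR 0.0254). Of these 6 genes, Ccnd1, Fos, Hspa1b, Hspb1 and Igfbp2 were not called without old male 4, and Gsta4 was not called without young male 3 or young male 4.

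The old and young vehicle females offer the same contrast in other mice, with the same substrains but old mice of 20 months in the labels, so that sex and age of the old mice cannot be told apart. With 4 old against 5 young females, 4530 of 14233 genes tested were called (31.8%). Of the 507 genes called in males 488 were tested in females, and 427 of these (87.5%) had the same direction there, against 62.7% of the 13561 genes tested in both. In both sexes 334 genes were called, 326 of them in the same direction, which is 65.9% of the male calls and 7.37% of the female calls. Immunoglobulin, MHC class II and macrophage lists had female medians of 3.30, 1.34 and 1.504 beside 3.10, 1.52 and 1.49 in males. The interferon-stimulated list had a median of 0.18 in females and 1.22 in males.

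A test of the difference between the sexes over the 17 vehicle mice with counts called 577 of 14721 genes (3.92%), 280 with a more positive and 297 with a more negative age effect in males. Here "age effect" stands for old minus young, in which age and substrain cannot be told apart. Without young male 1 it called 1193 genes and without old female 4 it called 207. Among the 507 genes called in males 77 were also called here, and 49 of these had the opposite sign in females. The lowest FDRs were those of Hsd3b3, Gm3839, Gm4045, Cyp2b10 and Gria3. Hsd3b3, a steroid dehydrogenase, was at 141 ± 25.5 CPM in old males and 153 ± 11.9 in young males (SD, n = 4 each). In females it stood at 39.4 ± 4.08 (SD, n = 4) in old mice against 129 ± 14.8 (SD, n = 5) in young mice. Its age effect in males minus that in females was 1.56 (SE 0.17, edgeR FDR 0.000351). Cyp2b10 was lower in old than in young males, while its mean in females was 41.6 ± 10.8 (SD, n = 5) CPM in young and 73.3 ± 8.57 (SD, n = 4) in old mice. The age effect in males minus that in females was -2.696 (SE 0.35, edgeR FDR 0.00112).

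Blnk, Prss8, Mup20 and Gstp2 had more positive age effects in males than in females, by 3.02 (SE 0.41, edgeR FDR 0.00139), 1.71 (SE 0.27, edgeR FDR 0.00366), 2.56 (SE 0.38, edgeR FDR 0.00195) and 2.92 (SE 0.62, edgeR FDR 0.0173). In females the mean of Blnk was higher in old mice, as given above. Those of Mup20 and Prss8 were lower in old females, at 10.6 against 32.9 and 6.19 against 8.20 CPM. The counts of Gstp2 are uncertain, as said above. Of the 35 interferon-stimulated genes 8 were called in this test, with Ifi44 at 2.64 (SE 0.61, edgeR FDR 0.0259) and Oas1a at 2.35 (SE 0.58, edgeR FDR 0.0346). Of the 22 acute phase genes 9 were called in this test, with list medians of -0.65 in males and 0.46 in females. No member of the MHC class II, macrophage, B cell or immunoglobulin lists was called.

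**Figure D5:**
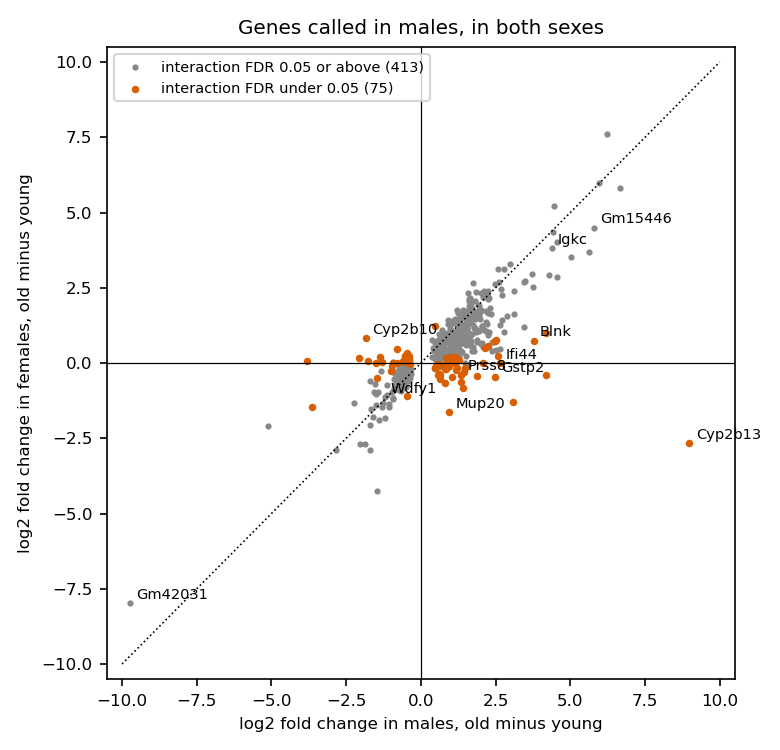
Log2 fold change (old minus young vehicle mice) in males and in females for the 488 genes called in males and tested in females, with equal change on the dotted line. The 75 orange points differ between the sexes at an FDR under 0.05; Igkc, Gm15446, Wdfy1 and Gm42031 have the same sign in both sexes, while Cyp2b13 and Mup20 lie below 0 in females.

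The FPKM of old male 1 and young male 5, the mice outside the counts, were set beside the calls without a test. Of the 379 genes called higher, 376 had a value in at least 1 of the 2 mice and 351 of these (93.4%) were higher in old male 1. Over all genes tested 81.9% were higher in old male 1. Of the 128 genes called lower, 61 of 125 (48.8%) were lower in old male 1, against 18.1% of all genes. Old male 1 lay nearer to the mean of the old than of the young mice with counts for 353 of the 379 genes called higher (93.1%) and 77 of the 128 called lower (60.2%). Young male 5 also lay nearer to the old mean for 192 (50.7%) and 74 (57.8%) of them. Each group is 1 mouse here, and both mice stood apart in what they expressed. Saa1 was at 26524 FPKM in young male 5, beside 43.2 to 5783 in the other young males and 103 to 308 in the 5 old males, and the 22 acute phase genes of that mouse summed to 132843 FPKM against 10303 to 39273 in the other young males. In old male 1 the B and plasma cell markers summed to 398 FPKM (12.5 to 23.4 in the other old males), the macrophage markers to 1036 (107 to 300) and the 40 proliferation genes to 425 (56.2 to 88.9). Igkc was at 976 FPKM there, and Mki67, a marker of dividing cells, at 7.88 against at most 0.213 in the other old males. In young male 5 the immunoglobulin constant genes summed to 308 FPKM, inside the 190 to 425 of old males 2 to 5 and above the 17.7 to 42.8 of the other young males, as did Igkc and the macrophage markers given above.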

How the data were processed

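PolyA RNA of whole livers was sequenced. The sources name STAR alignment to mm10 and counting by HTSeq as steps of the authors, and the deposited gene counts are whole and not normalized. The authors also deposited FPKM values made with Cufflinks, including those of 2 vehicle males without counts. Versions and the strand setting were not given in the sources used here. Groups came from the labels, which name no batch, and all 27 count columns matched a mouse.

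Genes were filtered with filterByExpr (minimum count 10, minimum total 15) and tested with edgeR 4.0.16 (R 4.3.3) by the quasi-likelihood test after TMM, at a Benjamini-Hochberg FDR under 0.05. SEs were derived from the F statistic. The scripts were tested on simulated data. Totals were 17168742 to 22523294 counts per mouse. In the main comparison, p-values weigh the difference between the groups against the spread between mice, with 4 mice per group. Alternatives used DESeq2 1.42.0, RLE size factors, no filter, all 6 groups in one fit, a replicate block, an FDR of 0.01, limma 3.58.1 on log2(FPKM + 1) or log2(FPKM + 0.1), and leaving out each mouse. Same-numbered mice did not deviate together (correlations -0.228, -0.088 and -0.109), so numbers were not taken as pairs.

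The comparison and the gene lists were chosen with earlier results of these data known. Genes were named by rule: the 6 largest rises and falls among called genes without overlap, the 5 lowest FDRs and the 3 most abundant called genes in each direction, the 3 largest called members of each list (or, with none called, its 2 most abundant), the 5 lowest FDRs of the sex difference, and label checks. Bst2, Clec4f, Col1a1, Col3a1, Cyp2a4, Fasn, Irf7, Lcn2, Mki67, Mup3, Mup7, Oas1g, Saa1, Saa2 and Timd4 were added after their values were seen. A few named genes are not reported here. Gene positions are those of the reference annotation on GRCm38, of which mm10 is another name.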

Additional observations from a re-analysis of the deposited data

Results flagged for a closer look

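In groups of 4 mice, 1 mouse lay apart from the other 3 by Dixon's 95% criterion in the CPM of 11 of 250 gene and group pairs screened, where chance marks about 1 group in 20, or 12.5 of 250. Among old males these were the highest values of Ighv1-53 (5.25), Tdo2 (1250), Cdkn1a (16.1), mt-Cytb (7524), Sds (471) and S100a9 (9.35), and the lowest of Plin4 (4.99). Among young males they were the highest of Ighv1-53 (0.0543), Igkv3-2 (0.109) and Gstp2 (6.22), and the lowest of Ms4a7 (0.181). The values of Ighv1-53 and Igkv3-2 in young males are 1 and 2 counts in 1 mouse with 0 in the other 3, which meets the criterion whatever the count, so that they carry no weight.

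The age effect differed between the sexes in edgeR's test of the difference for 22 named genes, given as male minus female log2 fold change. It was more positive in males for Cyp2b13 (11.68, a fitted value that depends on the absence of counts in young males), Blnk (3.02), Prss8 (1.71), Mup20 (2.56), Gstp2 (2.92), Cyp2b9 (4.59), Ifi44 (2.64), Oas1a (2.35), Ifi27l2a (1.74), Cela2a (3.04), Hsd3b3 (1.56), Gm3839 (4.07), Gm4045 (3.60) and Gria3 (2.75). It was more negative in males for Gm49980 (-2.21), Car14 (-0.995), Ei24 (-0.52), Plin5 (-1.35), Cyp4a10 (-1.86), Cpt2 (-0.77), Cyp2b10 (-2.696) and Saa4 (-0.95).

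The mice without counts held the highest FPKM of all 10 vehicle males for many named genes called in the test, old male 1 for 47 and young male 5 for 6. The most extreme were Ms4a1 (28.8), H2-DMb2 (50.5) and Cd79a (42.5) in old male 1, and Saa4 (365), Ier3 (7.81) and Bhmt (1463) in young male 5.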

How the results depend on the processing

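The number of called genes moved most with the fit. Beside 507 (379 higher and 128 lower), DESeq2 called 1318 (931 and 387), no filter on low counts 968 (755 and 213), all 6 groups in one fit 2007 (1298 and 709), and an FDR under 0.01 left 82 (64 and 18). With the replicate number as a block, although the numbers do not pair the mice, 29 genes were called (24 and 5). Limma on log2(FPKM + 1) over 10 mice, which include the 2 that stood apart, called 41 (32 and 9), and with 0.1 in place of 1 it called 54 (43 and 11). Chosen after seeing the data, limma called 155 (119 and 36) on the 8 mice with counts, 56 (45 and 11) without old male 1 and 35 (27 and 8) without young male 5. Leaving out 1 mouse at a time gave 144 to 579 genes (107 to 486 higher, 37 to 118 lower). RLE size factors gave 505. All 507 genes kept their direction in the edgeR and DESeq2 alternatives, which carries little weight, since these fits hold mice in which the genes were chosen. In limma over 10 mice 501 did with log2(FPKM + 1) and 503 with 0.1, so that 6 and 4 changed sign. The causes were not tested.

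The difference between the sexes was called for 577 genes, for 1129 by DESeq2, 183 with the replicate block, and 207 to 1193 when 1 mouse was left out.

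The medians of 11 of 50 gene lists changed sign without 1 mouse, the major urinary proteins (-0.402, up to 0.0559) and male-biased genes (-0.159, up to 0.0412) among them. Among the named genes, only those that were not called changed sign. In limma over 10 mice with log2(FPKM + 1) and log2(FPKM + 0.1), the log2 fold change was 0.0679 and 0.0685 for Ghr, 0.0663 and 0.0742 for Cdkn1b, 0.379 and 0.401 for Tef, 0.2912 and 0.2916 for Atp5b, 0.0385 and 0.0387 for Atp5a1, 0.102 and 0.106 for Eif2s3y, -0.2176 in both for Trf, 0.0417 and 0.0423 for Mdm2, 0.246 and 0.2498 for Hsd3b3, and -0.563 and -0.683 for Gm4045. Tef was at 0.0459 with the block. Without 1 mouse, values ranged from -0.0569 to 0.0311 for Ghr, -0.112 to 0.0504 for Slc27a5, -0.172 to 0.0852 for Tef, -0.118 to 0.000322 for Atp5b, -0.0439 to 0.128 for Rps2, -0.0643 to 0.0444 for Eif2s3y, -0.0228 to 0.189 for Trf, -0.0914 to 0.00908 for Mdm2 and -0.0407 to 0.176 for Gm4045. Of 88 named genes called, 32 stayed called without each mouse. Depth limits genes of low level, and Cdkn2a was not tested.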
